A study of Mus musculus with 34 samples.

Results

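The mouse genes named Zfp followed by a number encode zinc finger proteins, and 247 of them were measured here in blood. They are the protein-coding genes whose symbol is Zfp and digits alone, without Zfp36 (an RNA-decay factor of another protein family), that had a raw count of 10 or more in at least 15 of 30 libraries. Of 364 such genes among 54532 gene IDs, 117 missed the count rule, and 17 of those had no count at all. Just inside the rule were Zfp14 and Zfp174, each with 10 or more counts in 15 libraries (305 and 286 counts in all). Just outside were Zfp772 (14 libraries, 298 counts) and Zfp995 (13 libraries, 353 counts). Of the 247 genes, 107 had 10 or more counts in every library.

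The mice were wild type and received phosphate-buffered saline (PBS, 9 mice with counts), ALY688 (10 mice), lipopolysaccharide (LPS, 4 mice) or ALY688 with LPS (7 mice). ALY688 is a peptide agonist of the adiponectin receptors, and LPS is a bacterial outer membrane component sensed through Tlr4. The study looked for blood markers of ALY688 action and, in a separate LPS model, for an anti-inflammatory effect of ALY688. The sources used here do not name a strain, sex, age, dose or time. The labels give blood for every sample, whereas the design text speaks of plasma for ALY688 alone and of whole blood for LPS, so LPS, the experiment and the material cannot be told apart. A further 4 labelled mice (number 10 of the PBS group, numbers 3, 4 and 5 of the LPS group) are not analysed here.

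Zinc finger proteins of the C2H2 class bind DNA through tandem fingers, each a short fold held by a zinc ion. Many also carry a KRAB domain, which recruits the co-repressor Trim28 (KAP1) and, through it, the histone methyltransferase Setdb1 and heterochromatin proteins. KRAB zinc finger genes lie in tandem clusters, arose by repeated duplication, and are best known for silencing retroelements and guarding imprints. Other Zfp genes have no KRAB domain and act as activators, co-repressors, RNA-binding proteins or ubiquitin ligases.

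The members were spread over 20 chromosomes, with 63 on chromosome 7, 32 on chromosome 17, 23 on chromosome 13 and 18 on chromosome 8. Translated coding sequences held a median of 10 C2H2 fingers (interquartile range 7 to 14), up to 36 in Zfp142, and none in Zfp330, Zfp703 and Zfp839. A KRAB box was called where a stretch of 38 residues matched the majority KRAB sequence at 13 or more positions. This held for 143 members (median 12 fingers) and not for the other 104 (median 7 fingers). The cut lies in a gap, since no member had 12 matching positions. It was placed after the distribution was seen. A total of 100 members lay in 11 clusters of 5 or more neighbours, among them 18 genes at chr17:21008903-23564238 and 16 at chr13:67038596-67827002 (GRCm38), all 34 with a KRAB match.

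Some promoter motifs were more frequent in windows of these genes than in all windows, others were not, and none was tested. The choice of members did not use them. RefSeq windows of 300 bases (250 before and 50 after the gene start, GRCm38.p6) were found for 205 members, 249 windows in all. The core of the site bound by the activator Zfp143, searched as ACTACA, any 2 bases and then TCCC, was in 40 windows on either strand. That is 16.1% of the members' windows, against 1.81% of all 32851 windows and 2.54% of the 21262 windows of protein-coding genes. Of the 40 members that hold it, 32 have a KRAB match. The ETS core CCGGAAG was in 22.5% of member windows, 8.86% of all windows and 11.6% of coding windows. For CCAAT the shares were 47.8%, 37.4% and 38.2%. The box GGGGCGGGG was in 13.7%, 11.4% and 15.4%, and TATAAA in 5.22%, 13.6% and 12.6%. Members had a median of 16 CG dinucleotides per window, against 7 in all windows and 13 in coding windows. Each motif was searched on both strands and counted separately, so matches may overlap, and a match is not a measured binding site.

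Of 15 members named further on by smallest p for a fall with LPS, 12 have a window and 5 hold the Zfp143 core. Of 12 named for a rise, 8 have a window and 0 hold it. Among all 205 members with a window, 40 hold it. The named genes were chosen by their p in these data, and the difference was not tested. The stretches below are shown because they hold the core in promoters of those 5 that fell. They run 5′ to 3′ on the plus strand of GRCm38.p6, the strand of all 5 genes. Capitals mark the core, which lies on the opposite strand in Zfp180 and Zfp260. The core begins 23 bases before the start in Zfp180 (chr7:24081850-24081909), 29 in Zfp260 (chr7:30095023-30095082), 145 in Zfp28 (chr7:6383149-6383208) and 65 in Zfp60 (chr7:27731320-27731379). Zfp317 has 2 copies, 224 and 180 bases before its start (chr9:19621843-19621902 and chr9:19621887-19621946).
Zfp180: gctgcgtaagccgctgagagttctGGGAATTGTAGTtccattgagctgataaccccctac
Zfp260: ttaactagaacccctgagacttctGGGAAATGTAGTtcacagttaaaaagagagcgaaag
Zfp28: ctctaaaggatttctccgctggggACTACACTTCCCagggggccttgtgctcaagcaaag
Zfp317, upstream copy: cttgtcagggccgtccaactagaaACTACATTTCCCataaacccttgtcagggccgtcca
Zfp317, downstream copy: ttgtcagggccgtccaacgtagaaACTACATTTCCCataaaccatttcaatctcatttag
Zfp60: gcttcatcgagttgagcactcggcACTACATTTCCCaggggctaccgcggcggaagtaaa

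Whole windows are shown, as picked examples, for Zfp260, a member that fell with LPS, and Zfp710, a member that rose with LPS. They lie at chr7:30094826-30095125 and chr7:80024564-80024863 of GRCm38.p6, both on the plus strand, with the start after base 250. The Zfp260 window holds 5 CG dinucleotides and the core (capitals), and the Zfp710 window holds 4 and no match to the core.
Zfp260: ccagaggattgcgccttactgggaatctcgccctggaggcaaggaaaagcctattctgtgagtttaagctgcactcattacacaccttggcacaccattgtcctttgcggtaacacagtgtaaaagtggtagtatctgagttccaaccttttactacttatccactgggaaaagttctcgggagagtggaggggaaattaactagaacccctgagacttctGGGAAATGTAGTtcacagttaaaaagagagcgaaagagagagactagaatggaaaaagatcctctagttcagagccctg
Zfp710: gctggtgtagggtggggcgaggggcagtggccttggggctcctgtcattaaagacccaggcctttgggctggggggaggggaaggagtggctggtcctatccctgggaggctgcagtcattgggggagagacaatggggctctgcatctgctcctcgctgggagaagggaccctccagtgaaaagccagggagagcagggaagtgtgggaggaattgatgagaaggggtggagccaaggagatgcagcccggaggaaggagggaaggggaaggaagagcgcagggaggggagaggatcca

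Libraries held between 9554964 and 17338214 counts, of which globin genes took 18.5% to 64.4%. The members together took 6107 to 75296 counts, that is 0.0577% to 0.434% of a library. In 6 libraries fewer than 16000 genes had a count (PBS mice 5, 6 and 9, ALY688 mouse 7, ALY688+LPS mice 6 and 8), and there only 139 to 192 members reached 10 counts, against 200 to 246 in the other 24. Marker genes of blood cells differed in level between the groups. Levels are given as CPM, counts scaled to a common library size with TMM factors, which set that size by the bulk of genes and not by the total. The summed level of 10 B cell markers lay between 554 and 1878 CPM in PBS mice, 741 and 1656 in ALY688 mice, 95.7 and 260 in LPS mice, and 120 and 626 in mice given both. Of 10 T cell markers the sums were 161 to 524, 266 to 614, 74.1 to 120 and 91.3 to 163 CPM. For 10 neutrophil markers they were 590 to 2130, 547 to 1386, 4417 to 14253 and 5692 to 13273 CPM. No marker was at 0 in any library. In bulk blood, fewer cells of a type and less RNA per cell cannot be told apart.

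The mean level over the 247 members, as log2 CPM, was 2.13 ± 0.31 with PBS (SD, n = 9) and 2.36 ± 0.25 with ALY688 (n = 10). It was 1.93 ± 0.16 with LPS (n = 4) and 1.91 ± 0.19 with both (n = 7). The lowest and highest mice of the PBS group were at 1.67 and 2.52, those of the ALY688 group at 1.71 and 2.59. With LPS the extremes were 1.72 and 2.07, and under both treatments 1.61 and 2.14, so that the groups overlap. The low end of the groups without LPS comes from the libraries with few detected genes: PBS mice 5, 6 and 9 stood at 1.67 to 1.84 and ALY688 mouse 7 at 1.71. Without those libraries the means were 2.33 ± 0.13 with PBS (n = 6) and 2.43 ± 0.11 with ALY688 (n = 9), all above 2.07, and 1.98 ± 0.15 with ALY688 and LPS (n = 5).

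**Figure D1:**
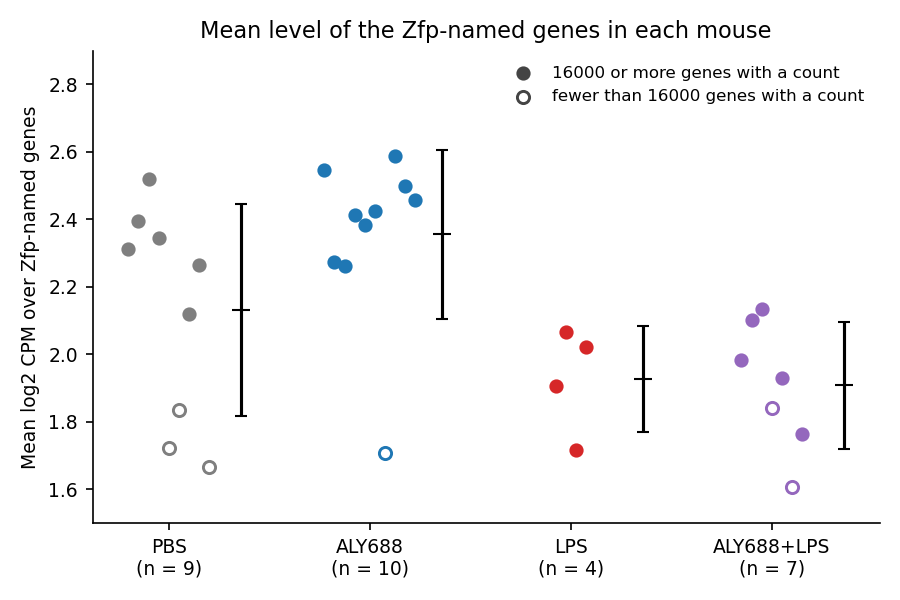
Mean log2 CPM over the 247 Zfp-named genes (vertical axis) in each mouse of the 4 groups; a circle is 1 mouse, open where fewer than 16000 genes had a count, and bars give the mean ± SD of all mice of a group. Open circles lie at 1.61 to 1.84, and the filled ones with LPS at 1.72 to 2.14, below most filled ones without LPS.

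Comparing the 4 libraries of few detected genes without LPS with the 15 others, 222 members had a lower mean level and 25 a higher one (median log2 ratio -0.68). Among the higher ones, Zfp664 averaged 190.8 CPM (117 to 289) in the 4 libraries and 68.5 CPM (22.2 to 92.6) in the 15, without overlap. Zfp180 averaged 43.3 CPM (42.6 to 44.1) against 20.2 CPM (14.9 to 27.1), also without overlap. These libraries were grouped by their number of detected genes and not by a label, and no test was made.

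The spread of members between mice was close to that of other genes. The SD of log2 CPM between mice had a median over members of 0.54 with PBS, 0.37 with ALY688, 0.32 with LPS and 0.40 with both. Over all genes the medians were 0.54, 0.38, 0.39 and 0.40. Without the libraries of few detected genes the members' medians were 0.32 with PBS, 0.29 with ALY688 and 0.29 with both, against 0.36, 0.30 and 0.30 over all genes. Per kilobase of exon, the members with the highest median level without LPS were Zfp740 (10.05 CPM per kb), Zfp706 (10.04), Zfp664 (9.57) and Zfp207 (7.29).

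LPS against PBS asks how the members differ between mice given LPS and mice given PBS, both without ALY688. With TMM scaling, 54 of 246 members tested fell (22.0%) and 12 rose (4.88%), at an adjusted p below 0.05 in edgeR's quasi-likelihood test. Among all 12353 genes tested 17.9% fell and 20.9% rose. The median log2 fold change was -0.34 over members and -0.04 over all genes, and 176 members lay below 0. With library totals in place of TMM the medians were 0.68 over members and 1.04 over all genes, with 45 members rising and 0 falling, so only the lag behind other genes keeps its sign (-0.30 with TMM, -0.36 without). The count of 54 also depends on single libraries: it was 30 without LPS mouse 8, 31 without LPS mouse 2 and 33 without LPS mouse 7. It was 93 without PBS mice 5, 6 and 9, and 25 when genes with low counts were kept in the fit. For these other fits, library totals included, the share of all genes called is not given here. Their counts therefore cannot be set against other genes. Since 19 of the 30 libraries are from mice without LPS, their number weights the rule for members toward genes expressed there. The rule uses raw counts, however, and depth leans the other way. Members took 6107 to 35192 counts in PBS libraries and 18786 to 75296 in LPS libraries. When 10 or more counts were required in at least 1 in 2 libraries of every group, 216 members were left, of which 47 fell and 11 rose.

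ALY688 with LPS against ALY688 makes the same comparison in mice that all received ALY688, and shares no library with the first. Here 120 of 247 members fell (48.6%) and 20 rose (8.10%) in edgeR, while 26.6% of all 12266 genes tested fell and 26.4% rose. The median was -0.45 over members and -0.05 over all genes, and 196 members lay below 0. With library totals in place of TMM, 34 members fell, 6 rose, and the medians were -0.37 and 0.03. The share of all genes called is not given for that scaling. By the balanced rule 106 of 216 members fell and 17 rose.

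Across both comparisons, 209 of 246 members had log2 values of the same sign (85.0%), as had 80.7% of 12075 genes tested in both. The log2 fold changes of members had a Pearson correlation of 0.84 and a Spearman correlation of 0.82 over these 246 genes, which are not independent replicates. Over all 12075 genes the correlations were 0.85 and 0.80. A fall passed in both comparisons for 48 members, which is 88.9% of those that fell with LPS alone and 40% of those that fell under ALY688. Over all genes these shares were 63.8% and 43.6%. A rise passed in both for 10 members, 83.3% and 50% of them, against 90.1% and 69.7% over all genes. No member passed in opposite directions, and 98 passed in neither.

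**Figure D2:**
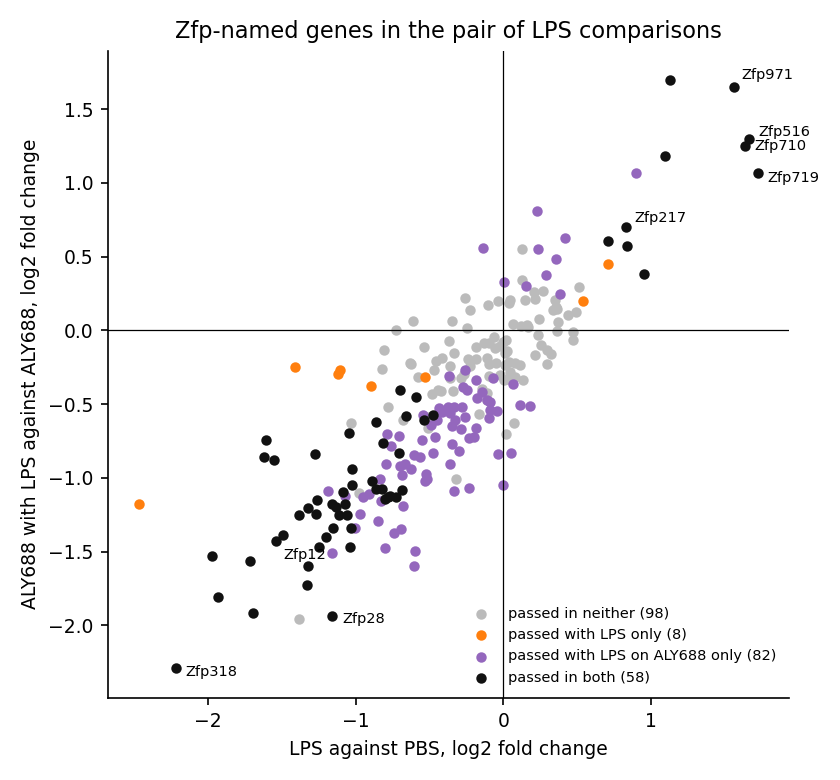
Log2 fold change (TMM scaling) of 246 members for LPS against PBS (horizontal axis) and for ALY688 with LPS against ALY688 (vertical axis); a point is 1 gene, coloured by the comparison in which it passed an edgeR adjusted p below 0.05. Most points lie at the lower left, with 48 that fell in both and 10 that rose in both; with library totals in place of TMM the median of the horizontal axis moves from -0.34 to 0.68.

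Zfp710 showed the smallest p among the members that rose with LPS. Its level was 25.1, 29.4 and 38.9 CPM (lowest, median and highest) with PBS and 24.8, 33.9 and 39.4 with ALY688. In LPS mice 2, 6, 7 and 8 it was 88.2, 96.0, 94.7 and 121 CPM, and with ALY688 and LPS it was 67.6, 76.6 and 101 CPM. Every mouse with LPS was above every mouse without. The log2 fold change was 1.64 ± 0.16 (SE, edgeR adjusted p = 1.64e-06) for LPS against PBS and 1.25 ± 0.09 (adjusted p = 1.37e-09) under ALY688. The gene lies at chr7:80024814-80094173.

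Zfp516, a co-activator known for switching on the brown fat program with Prdm16, stood at 4.59, 6.95 and 12.9 CPM with PBS and at 6.31, 9.20 and 11.1 with ALY688. In the LPS mice it was 20.01, 15.7, 29.3 and 35.3 CPM, and with both treatments 12.6, 21.4 and 34. The groups with and without LPS did not overlap within either comparison. It rose by a log2 fold change of 1.67 ± 0.26 (edgeR adjusted p = 0.000122), and by 1.30 ± 0.17 (adjusted p = 2.25e-06) under ALY688.

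Zfp217, whose human homologue is an amplified oncogene that binds co-repressor complexes, stood at 29.8, 38.6 and 50.8 CPM with PBS and at 28.7, 41.1 and 46.3 with ALY688. The LPS mice had 62.3, 60.8, 80.6 and 84.5 CPM, and the mice with both had 50.6, 68.2 and 76.4. It rose without overlap in both comparisons, by 0.83 ± 0.17 (edgeR adjusted p = 0.00122) and 0.70 ± 0.09 (adjusted p = 2.75e-06). Zfp703, a co-repressor without a C2H2 match here, averaged 6.33 ± 1.25 CPM with PBS (SD, n = 9) and 11.8 ± 2.63 with LPS (n = 4), a log2 fold change of 0.84 ± 0.18. Under ALY688 it rose by 0.57 ± 0.12.

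Zfp768 was low, at 2.33 ± 0.98 CPM with PBS (n = 9) and 5.11 ± 0.33 with LPS (n = 4), and rose by 1.10 ± 0.28 and 1.18 ± 0.17. Zfp719 went from 1.03 ± 0.39 to 3.68 ± 1.10 CPM and rose by 1.73 ± 0.31 and 1.07 ± 0.27. It had 10 or more counts in only 4 PBS libraries and missed the balanced rule. Zfp276 rose by 0.96 ± 0.22 and 0.38 ± 0.14. Zfp384, which binds runs of A and T in promoters of matrix genes, had a log2 fold change of 0.54 ± 0.17 with LPS (edgeR adjusted p = 0.0207), lost without LPS mouse 8 (0.52, adjusted p = 0.0598). Under ALY688 its value was 0.20 ± 0.09 and did not pass (adjusted p = 0.0642).

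Some members share sequence with other genes. Zfp971 rose by 1.57 ± 0.30 and 1.65 ± 0.15, and Zfp991 by 1.13 ± 0.34 and 1.70 ± 0.32, but 51.1% and 82.2% of their 50-base words occur elsewhere in annotated transcripts, so reads of near copies could be assigned to them. Without LPS mouse 6 Zfp991 no longer passed in LPS against PBS (1.00, adjusted p = 0.0638). Leaving out members that share 10% or more of such words, 43 of 197 fell and 8 rose with LPS, and 99 of 198 fell and 13 rose under ALY688.

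Among the members that fell, Zfp318 changed most in both comparisons within the named genes. It is needed for IgD on mature B cells, where it acts on the joint transcript of IgM and IgD. Its level was 16.3, 33.2 and 73.4 CPM with PBS and 29.5, 50.7 and 67.2 with ALY688. The LPS mice had 9.16, 12.1, 3.92 and 9.15 CPM, and the mice with both had 4.65, 9.12 and 22.9. No mouse with LPS reached the lowest one without LPS in its comparison. It fell by 2.22 ± 0.39 on the log2 scale (edgeR adjusted p = 0.000403) and by 2.29 ± 0.28 (adjusted p = 1.56e-06). All 10 B cell markers fell in both comparisons, with median log2 fold changes of -2.56 and -2.43. The part of B cell number in the change of Zfp318 was not tested.

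Zfp362 stood at 15.7, 19.1 and 26.6 CPM with PBS and at 15, 17.8 and 22.4 with ALY688. In the LPS mice it was 9.53, 10.7, 4.87 and 8.39 CPM, and with both it was 5.73, 7.59 and 10.1. All mice with LPS were below all mice without. It fell by 1.26 ± 0.20 (edgeR adjusted p = 0.000146) and 1.15 ± 0.12 (adjusted p = 2.31e-07) on the log2 scale. With library totals in place of TMM the first value was -0.054.

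Zfp12, a KRAB zinc finger gene with 15 fingers, stood at 4.51, 8.10 and 13.7 CPM with PBS and at 8.16, 9.05 and 11.5 with ALY688. The LPS mice had 4.10, 4.23, 1.43 and 2.88 CPM, and the mice with both had 2.80, 3.51 and 4.67. It fell without overlap within each comparison, by 1.54 ± 0.30 (edgeR adjusted p = 0.000878) and by 1.43 ± 0.13 (adjusted p = 1.62e-08). Zfp831 went from 23.0 ± 7.5 CPM with PBS to 9.96 ± 1.14 with LPS and fell by 1.27 ± 0.24 and 1.25 ± 0.17, also without overlap.

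Of the members whose promoters are printed above, Zfp180 stood at 15.8, 24.5 and 44.1 CPM with PBS and at 9.36, 9.64, 8.79 and 11.5 in the LPS mice, and fell by 1.61 ± 0.29 (edgeR adjusted p = 0.000444). Under ALY688 it fell by 0.74 ± 0.22 (adjusted p = 0.00749). Zfp260, known in heart muscle as a partner of Gata4, went from 13.7 ± 3.5 CPM with ALY688 to 6.61 ± 0.85 with both and fell by 1.07 ± 0.16. Zfp28 went from 2.46 ± 0.65 to 0.695 ± 0.320 CPM and fell by 1.94 ± 0.27. It had 10 or more counts in 9 ALY688 libraries but only 3 with both, and missed the balanced rule. Zfp317 fell by 1.15 ± 0.16 in the same comparison, from 11.2 ± 2.6 to 5.16 ± 1.14 CPM. Zfp60 went from 3.91 ± 1.07 CPM with PBS to 1.87 ± 0.40 with LPS and fell by 1.13 ± 0.26.

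Other named members fell with LPS against PBS by 0.89 ± 0.19 (Zfp777), 1.05 ± 0.22 (Zfp961), 1.12 ± 0.25 (Zfp945) and 1.33 ± 0.28 (Zfp398). Zfp777 and Zfp961 stood slightly above 0 with library totals in place of TMM. Zfp398 fell by 1.60 ± 0.20 under ALY688, and Zfp956 by 1.72 ± 0.22. Zfp945 ranged from 2.18 to 14.8 CPM with both treatments, and its value under ALY688 was -0.30 ± 0.33 (edgeR adjusted p = 0.469). Among members that rose under ALY688, Zfp207 (BuGZ, a Bub3 partner at the spindle) did so by 0.38 ± 0.07 without overlap and Zfp281, a regulator of stem cell identity, by 0.63 ± 0.14.

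**Figure D3:**
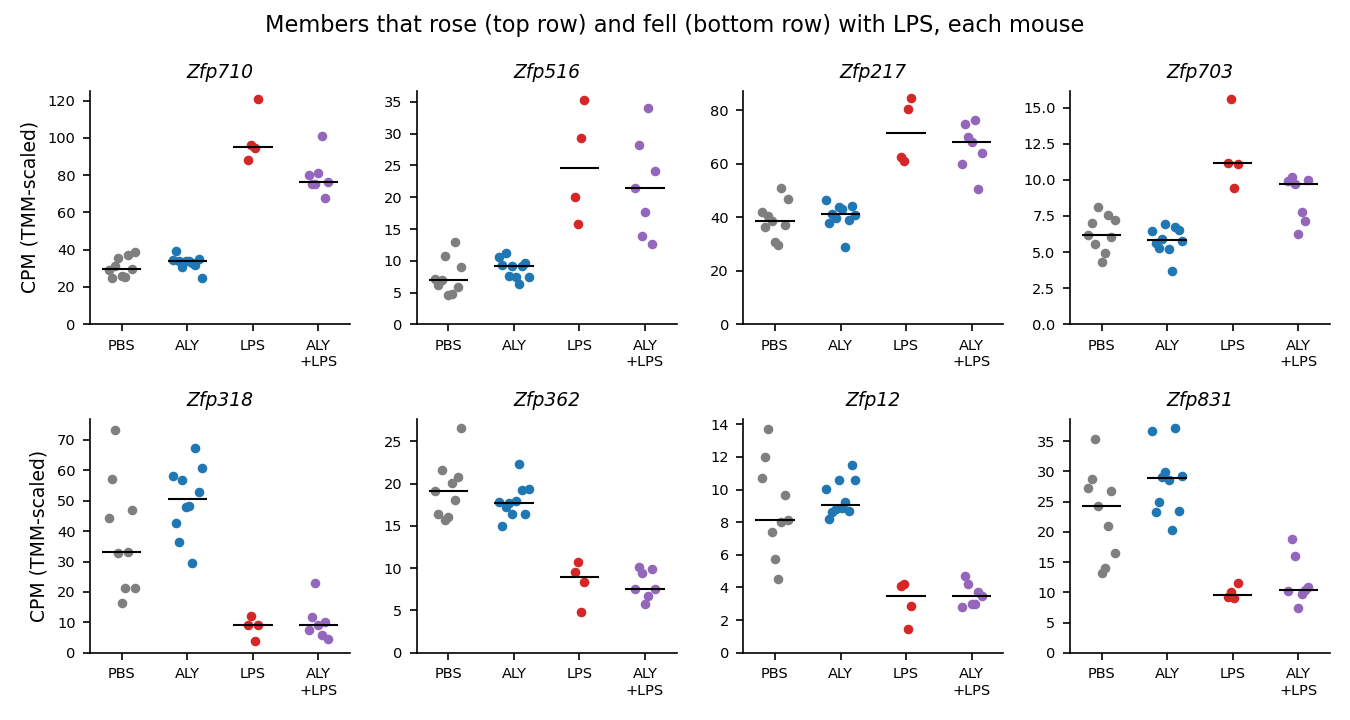
TMM-scaled CPM (vertical axis, from 0) of 4 members that rose with LPS (top row) and 4 that fell (bottom row) in each mouse given PBS, ALY688 (ALY), LPS or both (ALY+LPS); a point is 1 mouse and a line the group median. Zfp710 is at 67.6 CPM or more in every mouse with LPS and at 39.4 or less in every other mouse. Zfp318 is at 12.1 or less in the LPS group against 16.3 or more in the PBS group, and reaches 22.9 with both. With library totals in place of TMM the Zfp362 value for LPS against PBS is -0.054.

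By role, 15 members were listed as activators or repressors, a list not drawn from the KRAB match. With LPS against PBS 5 rose (33.3%) and 1 fell (6.67%), beside 20.9% and 17.9% of all genes. Under ALY688 4 rose (26.7%) and 2 fell (13.3%), beside 26.4% and 26.6% of all genes. Their medians were 0.32 and 0.20. Besides the members above, Zfp467, which favours the fat cell lineage, stood at 0.71 ± 0.24 (edgeR adjusted p = 0.0265) with LPS, lost without LPS mouse 6 (0.58, adjusted p = 0.0981) or mouse 8 (0.66, adjusted p = 0.0769), and at -0.18 with the globin percentage as covariate. Zfp395 fell by 1.04 ± 0.32, a call lost without LPS mouse 7 (-0.81, adjusted p = 0.0544) or mouse 8 (-0.92, adjusted p = 0.0622), and by 1.47 ± 0.17 under ALY688. With library totals in place of TMM its value for LPS against PBS was 0.052. Zfp143 itself averaged 7.84 ± 2.42 CPM with PBS and 9.13 ± 1.06 with LPS, with log2 values of 0.15 ± 0.23 (adjusted p = 0.650) and, under ALY688, 0.21 ± 0.11 (adjusted p = 0.111).

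Of 6 members listed for retroelement or imprint control, 1 fell (16.7%) with LPS against PBS and 5 fell (83.3%) under ALY688. Of all genes 17.9% and 26.6% fell. No listed member rose in either comparison. Zfp445, which guards imprints, averaged 38.7 ± 7.2 CPM with ALY688 and 26.7 ± 6.6 with both, and fell by 0.54 ± 0.14 (edgeR adjusted p = 0.00363). Its value for LPS against PBS was -0.09 ± 0.22 (adjusted p = 0.767). Zfp809, which recognises the primer site of murine leukaemia viruses, fell by 0.47 ± 0.16 under ALY688 (adjusted p = 0.0163), lost without ALY688+LPS mouse 10 (-0.41, adjusted p = 0.0515). Zfp932, a silencer of endogenous retroviruses, fell by 0.94 ± 0.27 and Zfp69 by 1.05 ± 0.22 in that comparison. Zfp69 missed the balanced rule, with 10 or more counts in only 4 PBS libraries.

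Of 11 members listed for RNA, translation, ubiquitin or SUMO pathways, Zfp318 alone passed with LPS against PBS. That is 9.09% that fell, beside 17.9% of all genes. Under ALY688 4 fell (36.4%) and 1 rose (9.09%), beside 26.6% and 26.4% of all genes. Zfp598, the ubiquitin ligase that senses collided ribosomes, averaged 22.3 ± 4.6 CPM with ALY688 and 13.7 ± 1.7 with both and fell by 0.72 ± 0.13 (edgeR adjusted p = 8.11e-05). Zfp326, part of a complex joining elongation and splicing, fell by 0.61 ± 0.14. Zfp91, a ubiquitin ligase for the NF-kB kinase NIK, had -0.27 ± 0.10 (adjusted p = 0.0305), a call lost on leaving out ALY688+LPS mouse 4, 6, 7, 8 or 10 (adjusted p from 0.0567 to 0.0835).

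Members with a KRAB match fell in 36 of 143 cases and rose in 4 with LPS against PBS, and those without in 18 and 8 of 103. Under ALY688 the counts were 77 fell and 9 rose of 143, and 43 fell and 11 rose of 104. The medians were -0.51 with a KRAB match and -0.14 without in the first comparison, and -0.61 and -0.30 in the second. Among members with the Zfp143 core in a promoter window 13 of 40 fell with LPS against PBS and 0 rose, against 35 and 8 of 164 members with a window that lacks it. Under ALY688 the counts were 24 fell and 1 rose of 40, and 83 fell and 13 rose of 165. Of all genes 17.9% fell and 20.9% rose in the first comparison, and 26.6% and 26.4% in the second. None of these differences between lists was tested, and the lists overlap.

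In the cluster of 5 KRAB genes at chr7:24081924-24316666, which holds Zfp180, 3 fell with LPS against PBS (median -1.61) and 4 under ALY688 (median -0.83). In the cluster of 13 members at chr7:29768552-30169750, which holds Zfp260, 4 fell and 8 fell, with medians of -0.70 and -0.92. In the largest clusters, of 16 members on chromosome 13, 1 fell and 4 fell (medians -0.39 and -0.30), and of 18 on chromosome 17, 1 fell and 5 fell (medians -0.16 and -0.31), while 1 and 2 rose. Of all genes 17.9% and 26.6% fell in the respective comparisons, and 20.9% and 26.4% rose. The clusters described were picked from 11 after their values were seen, and differences between clusters were not tested.

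The nearest relatives by name are the Zbtb, Zscan and Zkscan genes, which carry C2H2 fingers behind a BTB or SCAN domain. Of 50 tested, 10 fell and 4 rose with LPS against PBS (median -0.24), and 27 fell and 2 rose under ALY688 (median -0.43). Their shares that fell, 20% and 54.0%, lie beside 22.0% and 48.6% of the Zfp members and 17.9% and 26.6% of all genes. Of the Zfp genes that missed the count rule, 10 could be tested with LPS against PBS. None passed in edgeR, with 2 at an unadjusted p below 0.05. Under ALY688 5 could be tested, of which 2 fell and 1 rose. The filter of the fit can keep such a gene through 1 group alone, where it is high. These counts are therefore not a comparison with the members.

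Genes of the KRAB co-repressor pathway went in both directions. Of 33, 5 rose (15.2%) and 4 fell (12.1%) with LPS against PBS, where 20.9% and 17.9% of all genes did. Under ALY688 7 rose (21.2%) and 9 fell (27.3%), beside 26.4% and 26.6% of all genes. The medians were 0.11 and -0.09. Trim28, the partner of the KRAB domain, averaged 51.0 ± 13.6 CPM with PBS and 54.2 ± 12.6 with LPS, and 55.3 ± 9.5 with ALY688 and 43.8 ± 2.4 with both. It fell by 0.35 ± 0.10 under ALY688 (edgeR adjusted p = 0.00752), and its value for LPS against PBS was 0.03 ± 0.21. Uhrf1, which copies DNA methylation during replication, went from 2.60 ± 1.21 to 28.6 ± 13.9 CPM with LPS and rose by 3.39 ± 0.34 on the log2 scale. Chd3, a remodeller of the NuRD complex, fell by 1.25 ± 0.25 and 1.53 ± 0.15, and Resf1, a partner of Setdb1 in retroelement silencing, rose by 1.14 ± 0.09 under ALY688. Pphln1 of the HUSH silencing complex rose by 0.78 ± 0.14 and 0.73 ± 0.12, and Fam208a (Tasor) of the same complex fell by 0.99 ± 0.15 under ALY688.

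**Figure D4:**
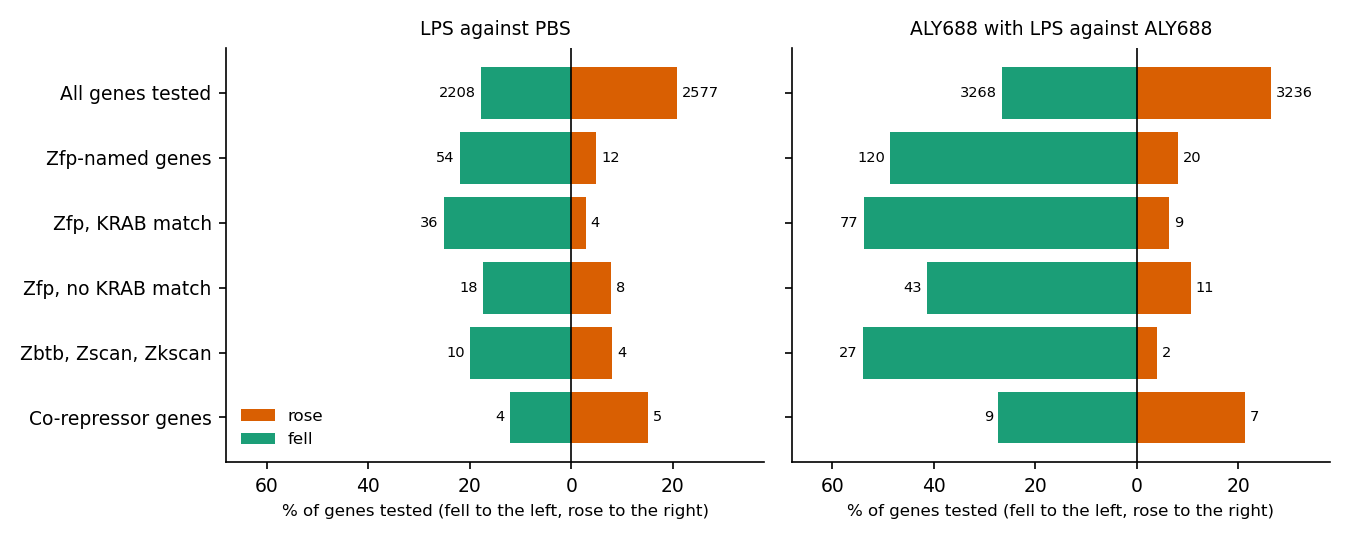
Percentage of genes tested that fell (left of 0) or rose (right of 0) at an edgeR adjusted p below 0.05 with TMM scaling, for all genes, Zfp-named genes, those with and without a KRAB match, Zbtb, Zscan and Zkscan genes together, and co-repressor genes; numbers beside the bars are gene counts. Of the Zfp-named genes 54 fell and 12 rose with LPS against PBS, where library totals in place of TMM give 0 and 45, and 120 fell and 20 rose under ALY688. The bars for all genes hold for TMM only, and no such share is given for library totals.

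These counts stand beside markers of other cells. With LPS against PBS 9 of 10 T cell and 10 of 10 B cell markers fell and 10 of 10 neutrophil markers rose, as did 4 of 8 monocyte markers, while 1 of the 8 fell. All 10 erythroid and all 8 platelet markers lay below 0 (medians -1.82 and -1.83), and 2 and 4 of them passed. Under ALY688 all 10 T cell and all 10 B cell markers fell, and all 10 neutrophil markers rose. Of 8 monocyte markers 4 rose and 1 fell, and no erythroid or platelet marker passed. The part of the cell mix in the members' counts was not tested.

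ALY688 against PBS asks what ALY688 does without LPS. No member passed of 245 tested (0% of all 11708 genes did) in edgeR, DESeq2 or limma-voom, and 22 members had an unadjusted p below 0.05 in edgeR, as did 1250 of all genes. The median log2 fold change was 0.16 over members and 0.03 over all genes, with 200 members and 6279 of all genes above 0. Library totals in place of TMM gave 0.61 and 0.50. With TMM the median was 0.19 over Zbtb, Zscan and Zkscan genes (41 of 48 above 0). Over co-repressor genes it was 0.12 (27 of 33 above 0). Without PBS mice 5, 6 and 9 and ALY688 mouse 7 the members' median was 0.07, and with the globin percentage as a covariate it was close to 0.

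Zfp235 had the smallest p among the members that were higher with ALY688. It stood at 1.35, 2.10 and 3.45 CPM with PBS and at 1.73, 3.39 and 4.30 with ALY688, so the groups overlap. Its log2 value was 0.55 ± 0.19 (edgeR adjusted p = 0.442). Zfp507 had 0.49 ± 0.19 and Zfp397 0.35 ± 0.13. On the other side were Zfp101 with -0.63 ± 0.25, Zfp706 with -0.29 ± 0.12 and Zfp746 (PARIS, a target of parkin) with -0.24 ± 0.11, all 3 above 0 with library totals in place of TMM. Zfp101 averaged 14.9 CPM in the 4 libraries of few detected genes without LPS and 8.04 CPM in the 15 others. No marker passed in edgeR in this comparison. Lower with ALY688 were all 8 platelet markers (median -1.05), 9 of 10 erythroid (-0.45), 8 of 9 neutrophil (-0.24) and 7 of 8 monocyte markers (-0.34), and all 10 B cell (0.30) and 8 of 10 T cell markers (0.09) were higher. The part of these markers' cells in the members' median was not tested.

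ALY688 with LPS against LPS asks what ALY688 does under LPS. Of 246 members none passed in edgeR, DESeq2 or limma-voom, as 0% of all 12741 genes did in edgeR, and 14 members had an unadjusted p below 0.05, as did 463 of all genes. The median was 0.02 over members and -0.0014 over all genes with TMM, and -0.46 and -0.49 with library totals. Zfp1 was 1.78, 1.96, 1.34 and 1.87 CPM in the LPS mice and 1.97, 2.72 and 3.15 CPM with both. These groups did not overlap, with a log2 value of 0.65 ± 0.19 (edgeR adjusted p = 0.913). Zfp120 had 0.38 ± 0.14 and Zfp984 0.36 ± 0.13 (both below 0 with library totals), and Zfp598 had -0.37 ± 0.15, Zfp703 -0.42 ± 0.16 and Zfp69 -0.70 ± 0.30.

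The interaction, the log2 value of ALY688 with LPS minus that without, passed for no member of 247 in edgeR, DESeq2 or limma-voom (0% of 13476 genes in edgeR), with 13 members and 1217 of all genes at an unadjusted p below 0.05. Its median was -0.15 over members and -0.03 over all genes, and -0.02 over members without the libraries of few detected genes. Over Zbtb, Zscan and Zkscan genes it was -0.32, and over co-repressor genes -0.21. Zfp180 had 0.86 ± 0.36 (edgeR adjusted p = 0.506), Zfp715 0.70 ± 0.30 and Zfp617 0.67 ± 0.28. These 3 were below 0 with library totals in place of TMM. Zfp579 had -1.01 ± 0.38, Zfp235 -0.89 ± 0.33 and Zfp282 -0.70 ± 0.28. The number of members that fell with LPS was larger under ALY688 (120 against 54), as was the share of all genes that fell (26.6% against 17.9%). The groups also differ in size, with 10 and 7 mice under ALY688 against 9 and 4. No member's response was shown to differ between the settings.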

How the data were processed

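Blood RNA of 30 mice was sequenced after poly-T capture, and the values are raw read counts per gene, 1 table per mouse, as the authors deposited them. Per the submitters' processing notes, the tools were HISAT2 2.0.5 and featureCounts 1.5.0-p3. Whether libraries were directional, how strand was used in counting, and the genome build are not given in the labels' protocols, so reads from genes that overlap on opposite strands cannot be separated. In 1 table a text column names transcription factor families (220 members zf-C2H2, 26 none, 1 other), and it was not used in any test. Symbols and coordinates come from GENCODE M21 (GRCm38), which held 54495 of 54532 IDs.

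TMM factors scale each library to the bulk of its genes in place of its total. Groups were compared with edgeR 4.0.16 in R 4.3.3 (filterByExpr, glmQLFit with robust estimation, two-sided glmQLFTest) on the libraries compared, with Benjamini-Hochberg adjustment over all genes tested and a threshold of 0.05. All libraries entered the interaction. DESeq2 1.42.0 and limma-voom (limma 3.58.1) were alternatives, beside other scalings, filters, covariates, left-out libraries and a mouse-number block. The fits were tested on simulated data. Adjusted p-values are from edgeR unless another tool is named, and each replicate is 1 numbered mouse. The mean member level uses log2 CPM with a prior count of 2. Intervals are given as SD or SE, and depth limits low genes: 3 counts are 0.173 to 0.314 CPM of a library's total, before TMM.

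Fingers and KRAB boxes were counted in coding sequences of GENCODE M21 translated by a script, since RefSeq proteins were not used here. Promoters are RefSeq windows. Named genes are, with a mean of at least 1 CPM, the 10 members of smallest p in each direction in both LPS comparisons, the 3 nearest in each direction elsewhere, members on the role lists, the genes at the edge of the count rule, and the leading co-repressor genes. Zfp664, Zfp740 and the clusters described were chosen after their values were seen. The members, role lists and marker lists were chosen with earlier results of these data known.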

Additional observations from a re-analysis of the deposited data

Results flagged for a closer look

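In groups of 4 to 10 mice, 200 sets of values (50 quantities: the mean member level and the named members, by group) were searched for a mouse far from the others by Dixon's criterion, and 9 stood out, where chance gives about 1 in 20. The mean member level of ALY688 mouse 7, at 1.71 log2 CPM, lay below the other 9 ALY688 mice (2.26 to 2.59). In the same mouse Zfp180 was at 43.4 CPM (others 14.9 to 22.2), Zfp217 at 28.7 CPM (37.7 to 46.3) and Zfp932 at 0.789 CPM (2.94 to 4.61). This library is 1 of the 6 with few detected genes, and 60.8% of its counts were globin. Zfp235 was at 1.73 CPM in ALY688 mouse 3, below 3.00 to 4.30 in the others.

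Among mice with ALY688 and LPS, Zfp318 was at 22.9 CPM in mouse 4 (others 4.65 to 11.9) and Zfp956 at 3.59 CPM in the same mouse (0.782 to 1.96). The B cell marker sum in that mouse was 626 CPM, against 120 to 305 in the other 6. Zfp710 was at 101.0 CPM in mouse 7 (67.6 to 81.1), and Zfp276 at 10.1 CPM in mouse 8 (16.7 to 21.6), a library with few detected genes. What part the library or the cell mix has in these values was not tested.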

How the results depend on the processing

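Scaling by library totals in place of TMM, for LPS against PBS, gave 45 members that rose and 0 that fell with a median of 0.68, which reverses the sign, and for ALY688 with LPS against ALY688 6 that rose and 34 that fell. Medians became 0.61 for ALY688 against PBS, -0.46 for ALY688 with LPS against LPS and -1.08 for the interaction. Named values that changed sign were Zfp101 0.17, Zfp706 0.30 and Zfp746 0.32 (ALY688 against PBS), Zfp120 -0.10 and Zfp984 -0.080 (ALY688 with LPS against LPS), Zfp395 0.052, Zfp777 0.14 and Zfp961 0.016 (LPS against PBS), and Zfp180 -0.36, Zfp617 -0.52 and Zfp715 -0.44 (interaction). In LPS against PBS, 25 members fell with no filter on low counts and 93 once libraries with few detected genes were left out. Taking the globin percentage as covariate, 7 rose, the median was -0.72 (-0.70 relative to all genes) and Zfp467 was -0.18, a change of sign. Of 22 named calls in LPS against PBS and 29 in ALY688 with LPS against ALY688, 8 and 13 kept their sign but no longer passed with library totals, 6 and 1 with the globin covariate, and 2 and 6 with the mouse number as replicate block. In the latter comparison 1 was lost with no filter and 1 without the libraries of few detected genes. The replicate block left 26 members that fell in LPS against PBS and 12 that rose in ALY688 with LPS against ALY688. The labels do not say whether equal numbers pair the mice. Same-numbered mice had correlated deviations above 0.1 in 2 of 9, 1 of 3, 2 of 4 and 2 of 7 pairs. Among all mice of the other group, the best correlated one had the same number in 1 of 9, 0 of 3, 1 of 4 and 0 of 7. Values above 0.1 were not counted for mice of different numbers, and pairing is not settled. No block was fitted for the interaction. Shares of all genes called are not given for these settings, and the cause of these shifts was not tested.

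DESeq2 called 75 members lower and 13 higher with LPS against PBS, and 133 and 23 under ALY688. With limma-voom the counts were 69 and 14, and 132 and 23. Leaving out 1 mouse at a time, the members that fell with LPS against PBS ran from 30 to 63 and those that rose from 9 to 14, with medians of -0.38 to -0.28. Under ALY688 they ran from 104 to 134 and from 17 to 22, with medians of -0.51 to -0.42. The share of all genes called is not given for these tools or left-out mice. These counts therefore cannot be set against other genes. Counts stayed at 0 in the other comparisons, with medians of 0.11 to 0.19 (ALY688 against PBS), -0.03 to 0.06 (ALY688 with LPS against LPS) and -0.21 to -0.10 (interaction). The limit of depth is the number of counts: in 6 libraries fewer than 200 members reached 10 counts.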
